A study of Homo sapiens with 12 samples.

Results

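The genes described here are 30 genes of cholesterol synthesis, sterol sensing, intracellular transport and export in T47D cells. They were taken by name from the 55765 genes of the deposited count tables, and all 30 passed the filter on low counts that left 17727 genes for testing. T47D is an established luminal breast cancer line that carries progesterone and estrogen receptors. The cells received an siRNA against the arginine methyltransferase PRMT1 (siPRMT1) or a nonspecific control siRNA (siCT), followed by 10 nM of R5020, a synthetic progestin, or by its ethanol vehicle, for 6 h. The 12 RNA-seq libraries form 4 groups of 3 biological replicates: siPRMT1 with R5020, siPRMT1 with ethanol, siCT with R5020 and siCT with ethanol. All groups were kept in medium with insulin and fetal bovine serum, a source of lipoproteins. Depletion was by siRNA in 1 cell line, and whether 1 or several siRNA sequences were used is not given in the sources used here. The question of the study was whether progestin-induced expression depends on PRMT1.

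Cells make cholesterol from acetyl-CoA. The mevalonate pathway builds isoprenoid units, squalene synthase and squalene epoxidase commit them to sterols, and lanosterol is then trimmed and reduced to cholesterol. The transcription factors SREBP1 and SREBP2, encoded by SREBF1 and SREBF2, switch on these enzymes. When sterols are plentiful, INSIG proteins hold the escort protein SCAP, and with it the SREBPs, in the endoplasmic reticulum. When sterols are scarce, SCAP carries the SREBPs to the Golgi for cleavage. The liver X receptors, encoded by NR1H3 and NR1H2, sense oxysterols and induce the exporters ABCA1 and ABCG1. NPC1 and NPC2 pass cholesterol out of lysosomes, and STARD4 moves it between membranes. Progestins are known to raise SREBP1 and lipid synthesis genes in breast cancer cells.

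RefSeq promoters (GRCh38.p14, 250 bases before to 50 after each start) were available for 26 of the 30 genes, and where a gene had several starts all its windows were searched. The counts themselves were made on hg19, and no position was carried between the builds. Promoters of 13 of 15 synthesis enzymes held a CCAAT box (CCAAT on either strand), the letters bound by NF-Y, a known partner of the SREBPs. Only PMVK and CYP51A1 lacked it among those 15. Among the genes of sensing, transcription, transport and export, 5 of 11 held it, against 39.7% of all 27305 genes in the promoter table. The core of the classical sterol regulatory element (TCACNCCAC on either strand) stood in 1 of 26 promoters, that of SREBF2, against 1.39% of all genes. No promoter of the 26 held the progesterone response element searched (GNACA, any 3 bases, then TGTNC), which stood in 0.48% of all genes. These are matches of letters in short windows, and no binding was measured. The stretches that follow are the 200 bases before the start of 8 of the genes described below, 5′ to 3′ on the gene's own strand. CCAAT or its complement ATTGG and the sterol element are in capitals, and in NSDHL a CCAAT and an ATTGG overlap.
SREBF2 (chr22:41832905-41833104, plus strand): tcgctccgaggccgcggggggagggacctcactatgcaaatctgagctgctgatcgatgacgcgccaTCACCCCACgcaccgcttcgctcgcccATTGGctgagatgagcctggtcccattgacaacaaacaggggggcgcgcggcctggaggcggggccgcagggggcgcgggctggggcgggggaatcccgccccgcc
SCAP (chr3:47475942-47476141, minus strand): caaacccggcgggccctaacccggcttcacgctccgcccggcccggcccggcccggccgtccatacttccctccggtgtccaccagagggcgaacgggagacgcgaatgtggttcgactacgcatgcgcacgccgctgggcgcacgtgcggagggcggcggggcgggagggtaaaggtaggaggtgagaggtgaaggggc
INSIG2 (chr2:118088271-118088470, plus strand): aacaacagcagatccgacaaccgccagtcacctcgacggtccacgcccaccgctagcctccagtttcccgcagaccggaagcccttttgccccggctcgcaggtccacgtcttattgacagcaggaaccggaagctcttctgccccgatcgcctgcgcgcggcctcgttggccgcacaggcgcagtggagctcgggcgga
HMGCS1 (chr5:43313413-43313612, minus strand): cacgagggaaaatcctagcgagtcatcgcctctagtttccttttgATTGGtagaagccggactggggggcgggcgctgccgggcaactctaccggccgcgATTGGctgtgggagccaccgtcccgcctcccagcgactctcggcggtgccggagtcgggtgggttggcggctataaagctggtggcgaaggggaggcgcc
NSDHL (chrX:152830863-152831062, plus strand): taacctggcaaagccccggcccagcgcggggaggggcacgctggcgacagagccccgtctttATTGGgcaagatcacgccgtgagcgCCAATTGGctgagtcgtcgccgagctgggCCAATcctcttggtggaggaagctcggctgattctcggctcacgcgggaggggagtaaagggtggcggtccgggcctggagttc
SC5D (chr11:121292571-121292770, plus strand): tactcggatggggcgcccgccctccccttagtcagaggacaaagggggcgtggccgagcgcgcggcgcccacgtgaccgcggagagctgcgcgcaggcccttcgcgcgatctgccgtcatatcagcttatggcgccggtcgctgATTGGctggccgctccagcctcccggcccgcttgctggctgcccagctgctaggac
DHCR7 (chr11:71448394-71448593, minus strand): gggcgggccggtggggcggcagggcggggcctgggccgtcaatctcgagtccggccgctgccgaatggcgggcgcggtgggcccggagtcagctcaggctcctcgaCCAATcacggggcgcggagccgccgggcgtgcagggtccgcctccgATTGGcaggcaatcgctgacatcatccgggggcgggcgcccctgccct
LSS (chr21:46228775-46228974, minus strand): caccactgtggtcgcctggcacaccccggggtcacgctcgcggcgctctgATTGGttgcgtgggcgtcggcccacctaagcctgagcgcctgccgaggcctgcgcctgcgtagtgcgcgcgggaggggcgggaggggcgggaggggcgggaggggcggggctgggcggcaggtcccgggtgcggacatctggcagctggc
The regulators SCAP and INSIG2 have no CCAAT letters in this stretch, SREBF2 has both motifs, and the 5 enzymes each have at least 1 CCAAT box. SREBF1, CYP51A1, NPC1 and ABCA1, which were called below but are not printed, held no CCAAT box in the windows searched.

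Total counts ranged from 26783525 to 34120937 per library. PRMT1 stood at 6.89 to 8.38 CPM (counts scaled by library total and TMM factor) in the 6 siPRMT1 libraries and at 29.7 to 50.7 CPM in the 6 siCT libraries, without overlap. Luminal epithelial markers were present in every group, with summed levels of 11955 to 16900 CPM in siPRMT1 libraries and 7350 to 11014 CPM in siCT libraries. Within siPRMT1 cells they were 11955 to 12915 CPM with R5020 and 16441 to 16900 CPM with ethanol. With siPRMT1 in ethanol KRT18 rose 2.67-fold, ESR1 2.26-fold, PGR 2.18-fold and KRT8 2.00-fold. EPCAM (log2 -0.36 ± 0.27), GATA3 (-0.15 ± 0.21), KRT19, FOXA1, XBP1 and TFF1 were not called there. PGR, the progesterone receptor gene, averaged 275 CPM with siPRMT1 and 169 with siCT in R5020, and 1129 and 517 in ethanol. R5020 lowered PGR 4.10-fold, FOXA1 3.85-fold and ESR1 2.65-fold in siPRMT1 cells, and 3.06-fold, 2.25-fold and 1.68-fold in siCT cells. GATA3 fell 1.90-fold in siPRMT1 cells and TFF1 1.63-fold in siCT cells. KRT8, KRT18, KRT19, EPCAM and XBP1 were not called for R5020 with either siRNA. Basal markers summed to 9.17 to 11.6 CPM in siPRMT1 libraries and 36.4 to 60.0 CPM in siCT libraries, and 4 of 6 were under 1 CPM. Of the basal markers ACTA2 fell 6.43-fold with siPRMT1 in ethanol and 5.57-fold in R5020, and MYLK fell 1.55-fold in ethanol. TP63 was not called in ethanol (log2 -0.63 ± 0.25). R5020 lowered TP63 4.21-fold in siPRMT1 cells and 5.41-fold in siCT cells, from ethanol means of 0.758 and 1.15 CPM. KRT5 stood higher with siPRMT1 in R5020, at 1.49, 0.911 and 0.788 CPM, against 0.0404, 0.0827 and 0.125 with siCT. In ethanol KRT5 was 0 in every library. For R5020 KRT5 was called higher in siPRMT1 cells and not called in siCT cells, and ACTA2 and MYLK were not called with either siRNA. Stromal markers summed to 30.7 to 36.8 CPM in siPRMT1 libraries and 30.3 to 85.2 CPM in siCT libraries, with 5 of 7 under 1 CPM. The part of these markers in the results was not tested. All 3 hepatocyte and all 6 leukocyte markers were below 1 CPM on average. Among siCT libraries a pair stood apart. The share of counts from mitochondrially encoded genes was 52.4% in siCT R5020 replicate 1 and 59.3% in siCT ethanol replicate 3, and 31.3% to 38.3% in the rest. The cholesterol genes lay above the other libraries of their group by a median of 0.479 (log2) in siCT R5020 replicate 1 and 0.543 in siCT ethanol replicate 3, while the median over all genes lay at -0.0369 and -0.0257. Results are therefore given with all 12 libraries and, where it matters, without this pair. What part RNA quality had in the results was not tested.

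**Figure D1:**
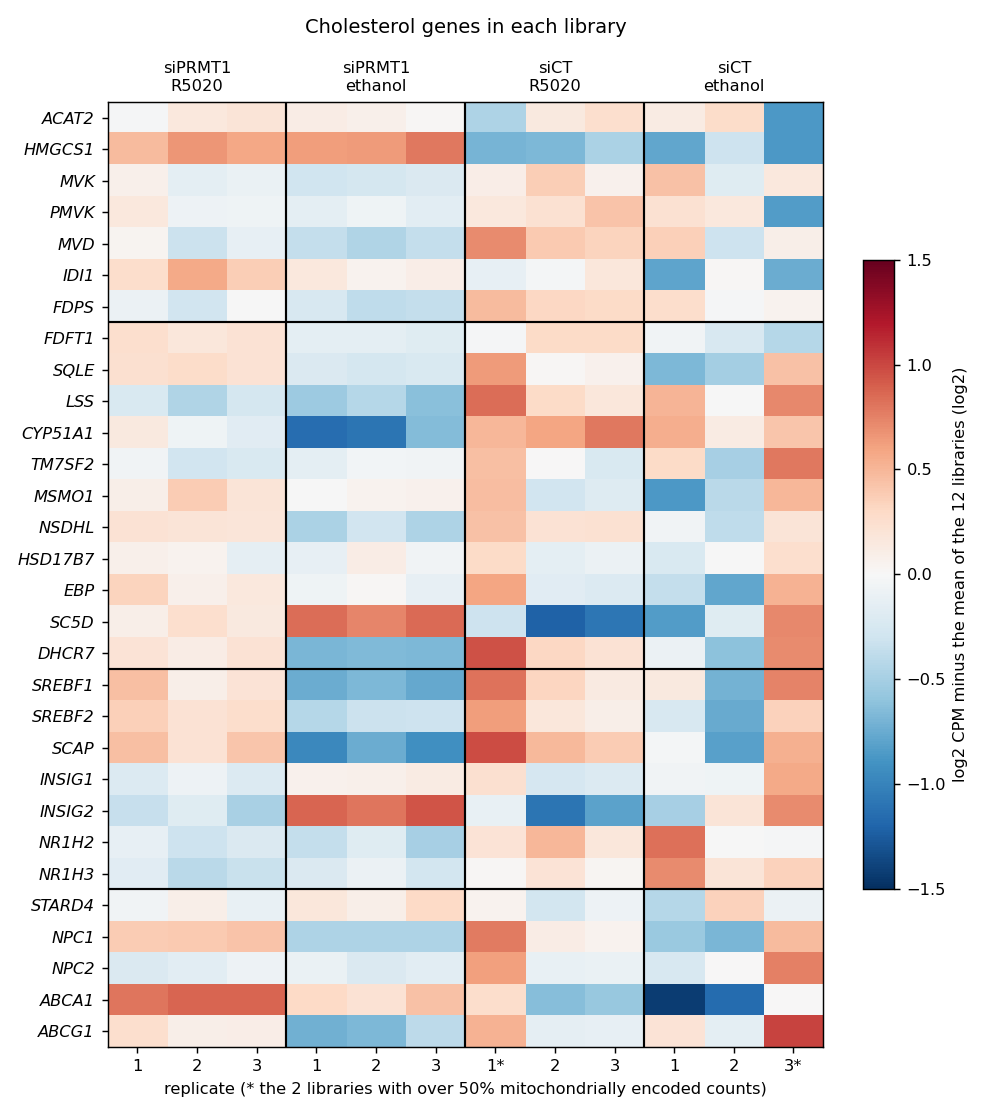
Level of each cholesterol gene (rows, grouped by role) in each library (columns), as log2 CPM minus the gene's mean over the 12 libraries. The 6 siPRMT1 libraries look alike within each group, while siCT R5020 replicate 1 and siCT ethanol replicate 3, marked with asterisks, are higher than their partners for many genes.

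Expression was compared with edgeR's quasi-likelihood test, and a gene was called at a Benjamini-Hochberg adjusted p under 0.05 over all genes tested. The spread of each gene was fitted over all 12 libraries, although the groups differed in spread. The common biological coefficient of variation was 0.075 for siPRMT1 R5020, 0.0462 for siPRMT1 ethanol, 0.211 for siCT R5020 and 0.321 for siCT ethanol. SEs and p-values for R5020 in siPRMT1 cells therefore also carry the spread of the siCT libraries. With R5020 in siPRMT1 cells 5 of the 30 cholesterol genes rose (9.3% of all genes tested did) and 1 fell (6.08% did). SCAP, SREBF1, NPC1 and the enzymes NSDHL and CYP51A1 rose, and INSIG2 fell. With R5020 in siCT cells 0 of 30 were called, against 13% of all genes (7.59% higher and 5.43% lower), although 8 had an unadjusted p under 0.05. DESeq2 called 1 higher and 1 lower there and limma with quality weights 3 and 2. Without the pair that stood apart, edgeR called 8 higher and 2 lower in siCT cells (10.9% and 8.95% of all genes) and 11 higher and 3 lower in siPRMT1 cells (15.8% and 13.3%). All 10 genes called in siCT cells in that fit were also called, in the same direction, in siPRMT1 cells, where 14 were. Over all genes 81.2% of those called in siCT cells and 55.5% of those called in siPRMT1 cells were shared in this way. With siPRMT1 in ethanol 2 of 30 rose (13.6% of all genes did) and 8 fell (19.2% did). With siPRMT1 in R5020 3 rose (11.5% did) and 4 fell (14.2% did). Without the pair 7 rose and 9 fell with siPRMT1 in ethanol (20.2% and 24.3% of all genes), and 8 rose and 6 fell in R5020 (19.3% and 19.6%). With 3 libraries a group, libraries that did not overlap were common: this held for 53.1% of all genes for R5020 in siPRMT1 cells, 20.8% for R5020 in siCT cells, 44.7% for siPRMT1 in ethanol and 51.5% for siPRMT1 in R5020. In total 20% of the cholesterol genes were called for R5020 in siPRMT1 cells, 33.3% for siPRMT1 in ethanol and 23.3% for siPRMT1 in R5020, close to the shares of all genes, which were 15.4%, 32.8% and 25.7%. In these bulk samples fewer cells with a transcript and less of it per cell cannot be told apart.

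The median log2 change of the 30 genes with R5020 was 0.214 in siPRMT1 cells, against -0.00361 for all genes, and 0.203 in siCT cells, against -0.0432. The siCT median was 0.0644 without siCT R5020 replicate 1 (all genes -0.0457) and 0.143 without the pair (all genes -0.0502). A positive log2 change was found for 23 of 30 in siPRMT1 cells (49.6% of all genes) and 21 of 30 in siCT cells (45.7%). The median with siPRMT1 was -0.253 in ethanol, against -0.0714 for all genes. That negative value turned to 0.0274 with library totals alone in place of TMM, which itself moved the median of all genes by 0.182. It was 0.0284 without siCT ethanol replicate 3, against 0.00357 for all genes, -0.0219 without the pair, against -0.0448, and -0.0796 by limma with quality weights, against -0.0411. The same choice moved the median of all genes by -0.172 for R5020 in siPRMT1 cells. There the members stayed above it, by 0.215 against 0.218 with TMM.

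SCAP and SREBF1 rose with R5020 in siPRMT1 cells. SCAP, the sterol-sensing escort of the SREBPs, stood at 31.1, 26.4 and 30.4 CPM in siPRMT1 cells with R5020, against 11.7, 13.5 and 12 with ethanol. Its levels in siCT cells were 44.8, 31.8 and 29.6 CPM with R5020 and 22.3, 12.9 and 33.0 with ethanol. The siPRMT1 groups did not overlap, while siCT ethanol replicate 3 lay inside the siCT R5020 range. R5020 raised SCAP 2.36-fold in siPRMT1 cells (log2 1.24 ± 0.27 SE, adjusted p = 0.00593), a call that held without each of the 12 libraries in turn. The change in siCT cells was not called (log2 0.65 ± 0.27 SE, adjusted p = 0.142) but was without the pair (log2 0.79, adjusted p = 0.0144). In ethanol SCAP fell 1.82-fold with siPRMT1 (log2 -0.87 ± 0.27 SE, adjusted p = 0.0259), and the call was lost without siCT ethanol replicate 1 or 3 or any siPRMT1 ethanol library (adjusted p 0.0547 to 0.137, log2 -1.16 to -0.45 over all libraries left out). With R5020 the siPRMT1 change of SCAP was not called (log2 -0.27, adjusted p = 0.468).

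SREBF1 encodes SREBP1, which drives fatty acid as well as sterol genes. It stood at 97.8, 76.2 and 82.4 CPM in siPRMT1 cells with R5020 and 43.0, 45.0 and 42.1 with ethanol. In siCT cells the R5020 libraries had 127, 89.4 and 78.6 CPM and the ethanol libraries 79.5, 43.9 and 119.9. Ethanol libraries of siPRMT1 cells were close together and below every R5020 library, and siCT ethanol libraries ranged widely and overlapped those with R5020. R5020 raised SREBF1 1.97-fold in siPRMT1 cells (log2 0.98 ± 0.29 SE, adjusted p = 0.0339), a call lost without any 1 of the 6 siPRMT1 libraries (adjusted p 0.0564 to 0.126). In siCT cells it was not called (log2 0.28, adjusted p = 0.628), nor without the pair (log2 0.44, adjusted p = 0.179). SREBF1 fell 1.87-fold with siPRMT1 in ethanol (log2 -0.90 ± 0.29 SE, adjusted p = 0.0293), with overlapping libraries. That value was -0.50 and not called without the pair (adjusted p = 0.054), and the call was also lost without siCT ethanol replicate 1 or 3 or any siPRMT1 ethanol library (adjusted p 0.0585 to 0.154). Reads of SREBF1 can include those of genes annotated within or across it, among them MIR33B and, on the other strand, RAI1.

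SREBF2, which encodes the main driver of sterol enzymes, stood at 116, 105 and 109 CPM in siPRMT1 cells with R5020 and 67.4, 72.3 and 73.4 with ethanol. The siCT levels were 139.6, 102 and 96.4 CPM with R5020 and 76.7, 53.9 and 115 with ethanol. It was higher in every siPRMT1 R5020 library than in every siPRMT1 ethanol library, but no comparison called it with all 12 libraries (log2 0.63, adjusted p = 0.0892 for R5020 in siPRMT1 cells). Without the pair R5020 raised it in siPRMT1 cells (log2 0.63, adjusted p = 0.00109) and siCT cells (log2 0.60, adjusted p = 0.00845).

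INSIG2, which encodes one of the retention proteins, fell with R5020 in siPRMT1 cells. It stood at 6.07, 6.78 and 5.51 CPM in siPRMT1 cells with R5020, against 14.1, 13.4 and 14.9 with ethanol. The siCT R5020 libraries had 7.15, 3.61 and 4.44 CPM and the siCT ethanol libraries 5.45, 8.85 and 12.6. Every R5020 library of siPRMT1 cells was below every ethanol library, and siCT libraries overlapped through siCT R5020 replicate 1. R5020 lowered INSIG2 2.31-fold in siPRMT1 cells (log2 -1.21 ± 0.28 SE, adjusted p = 0.00913), and the call was lost only without siPRMT1 R5020 replicate 3 (adjusted p = 0.0502). In siCT cells the decrease was not called (log2 -0.82 ± 0.29 SE, adjusted p = 0.0824) but was without the pair (log2 -0.84, adjusted p = 0.0166). With siPRMT1 INSIG2 was not called in ethanol (log2 0.67, adjusted p = 0.0782), and without the pair it rose (log2 1.00, adjusted p = 0.00144). INSIG1, the paralog that is itself an SREBP target, had 79.9, 87.5 and 80.4 CPM in siPRMT1 cells with R5020 and 96.8, 97.5 and 101 with ethanol. Its siCT values were 109, 77.4 and 80.3 CPM with R5020 and 88.9, 88.7 and 137 with ethanol. It was not called in any comparison with all libraries, with R5020 values of log2 -0.25 ± 0.19 in siPRMT1 cells and -0.24 ± 0.19 in siCT cells. Without the pair it fell with R5020 in siPRMT1 cells (log2 -0.26, adjusted p = 0.013).

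**Figure D2:**
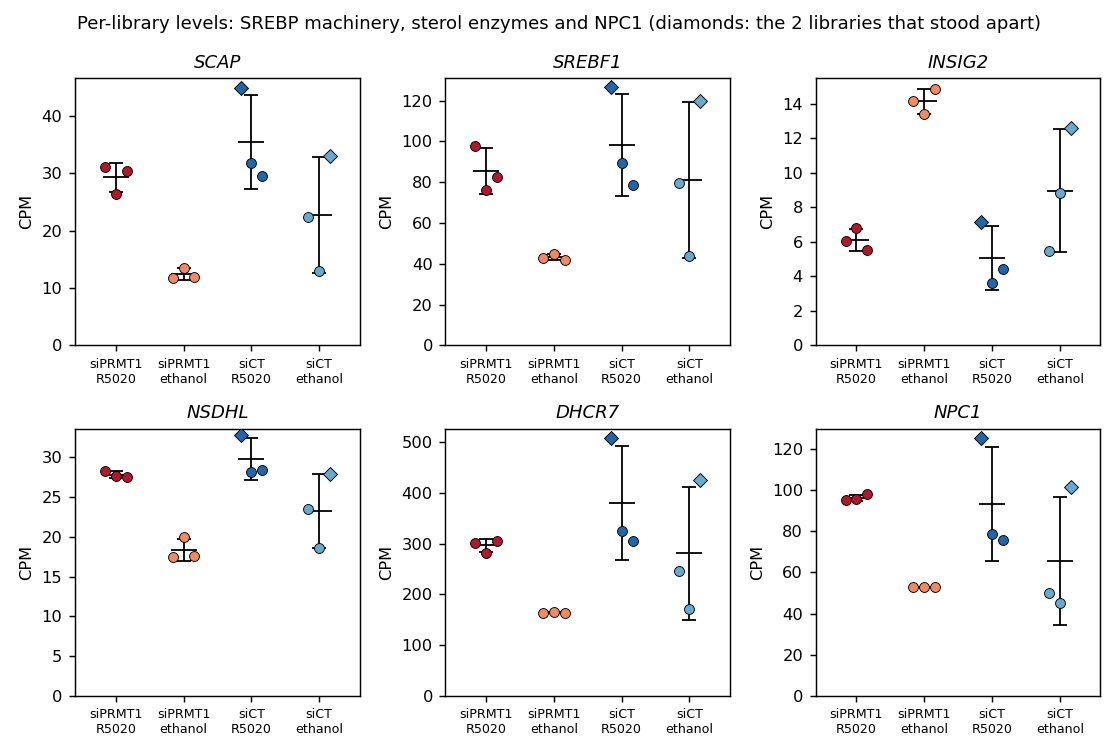
CPM of 6 genes in each library by group (points), with the mean and SD of 3 libraries (bars); diamonds are siCT R5020 replicate 1 and siCT ethanol replicate 3. SCAP, SREBF1, NSDHL, DHCR7 and NPC1 are higher and INSIG2 lower in all 3 siPRMT1 R5020 libraries than in all 3 siPRMT1 ethanol libraries, while siCT ethanol replicate 3 reaches into or above the siCT R5020 range for SCAP, SREBF1, DHCR7 and NPC1.

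Both liver X receptor genes fell with siPRMT1 in ethanol. NR1H3, encoding LXR alpha, stood at 10.8, 9.18 and 9.64 CPM in siPRMT1 cells with R5020 and 12.4, 14.1 and 12.5 in siCT cells with R5020. In ethanol it stood at 10.5, 11.4 and 10.0 CPM with siPRMT1 and 19.8, 13.9 and 15.5 with siCT. The siPRMT1 libraries were all below the siCT libraries under either treatment. It fell 1.54-fold in ethanol (log2 -0.63 ± 0.16 SE, adjusted p = 0.00911), a call that held without each library in turn, and was not called in R5020 (log2 -0.39, adjusted p = 0.0794). NR1H2, encoding LXR beta, had 8.40, 7.36 and 7.81 CPM with siPRMT1 and 10.5, 12.8 and 10.2 with siCT in R5020. Its ethanol values were 7.13, 8.01 and 6.47 CPM with siPRMT1 and 16.2, 9.09 and 9.02 with siCT. It fell 1.59-fold in ethanol (log2 -0.67 ± 0.22 SE, adjusted p = 0.0301), and the call was lost without siCT ethanol replicate 1, the highest library, or any siPRMT1 ethanol library (adjusted p 0.0544 to 0.126, log2 -0.83 to -0.33). Several genes are annotated on the opposite strand of NR1H2, NAPSA among them, and reads of both strands cannot be told apart since no strand setting is given. Neither receptor gene was called in ethanol with library totals alone or in a fit of the 2 ethanol groups.

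Among the 7 mevalonate pathway genes HMGCS1 stood out. HMGCS1, which makes HMG-CoA, had 69.8, 79.5 and 74.9 CPM with siPRMT1 and 30.9, 31.5 and 35.9 with siCT in R5020. In ethanol the values were 77.6, 77.8 and 86.6 CPM with siPRMT1 and 29.3, 40.4 and 27.6 with siCT. All 6 siPRMT1 libraries lay above all 6 siCT libraries. HMGCS1 rose 2.48-fold with siPRMT1 in ethanol (log2 1.31 ± 0.16 SE, adjusted p = 0.000123) and 2.28-fold in R5020 (log2 1.19 ± 0.16 SE, adjusted p = 0.000317). Both calls held without each library in turn and under all 7 other settings. R5020 gave log2 -0.11 ± 0.16 for HMGCS1 in siPRMT1 cells and 0.01 ± 0.16 in siCT cells, neither called.

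FDPS fell with siPRMT1 under both treatments and MVD in R5020. FDPS, which makes farnesyl diphosphate, stood at 41.5, 36.1 and 43.8 CPM with siPRMT1 and 61.6, 54.7 and 53.8 with siCT in R5020. In ethanol it had 37.3, 33.9 and 34.6 CPM with siPRMT1 and 52.9, 43.7 and 45.8 with siCT. The groups did not overlap under either treatment. It fell 1.35-fold in ethanol (log2 -0.43 ± 0.13 SE, adjusted p = 0.027) and 1.40-fold in R5020 (log2 -0.49 ± 0.13 SE, adjusted p = 0.0187). The ethanol call was lost without siCT ethanol replicate 1 or any siPRMT1 ethanol library (adjusted p 0.0607 to 0.101), the R5020 call without siCT R5020 replicate 1 or siPRMT1 R5020 replicate 1 or 2 (adjusted p 0.0554 to 0.101), and both with library totals alone or with no filter on low counts. FDPS has 8 annotated pseudogenes that could share its reads. MVD, the decarboxylase that yields isopentenyl diphosphate, stood at 11.9, 9.26 and 10.6 CPM with siPRMT1 and 19.0, 15.1 and 14.6 with siCT in R5020. Its ethanol levels were 9.01, 8.44 and 9.06 CPM with siPRMT1 and 14.9, 9.32 and 12.2 with siCT. MVD was lower in every siPRMT1 library than in every siCT library of the same treatment. It fell 1.53-fold in R5020 (log2 -0.61 ± 0.18 SE, adjusted p = 0.0258), a call lost without siCT R5020 replicate 1 or siPRMT1 R5020 replicate 2 or 3 (adjusted p 0.077 to 0.116), and was not called in ethanol (log2 -0.46, adjusted p = 0.069).

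The other mevalonate genes were not called in any comparison with all 12 libraries. IDI1, which isomerizes isopentenyl diphosphate, averaged 262 ± 27.9 CPM with siPRMT1 and 199 ± 20.8 with siCT in R5020, and 212 ± 7.78 with siPRMT1 and 144 ± 49.1 with siCT in ethanol (SD, n = 3 each). Its siPRMT1 libraries lay above the siCT libraries under both treatments (log2 0.56, adjusted p = 0.0542 in ethanol). The kinase genes MVK and PMVK had siPRMT1 changes in ethanol of log2 -0.42 ± 0.16 and -0.06 ± 0.22. ACAT2, a cytosolic thiolase, had 0.13 ± 0.25 there, and its level was lowest in the pair, at 11.8 CPM in siCT R5020 replicate 1 and 8.91 CPM in siCT ethanol replicate 3. Without the pair PMVK fell with siPRMT1 in ethanol (log2 -0.31, adjusted p = 0.0422) and in R5020 (log2 -0.31, adjusted p = 0.0471).

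In the sterol branch R5020 raised 2 of 11 enzymes in siPRMT1 cells, 18.2% of them, against 9.3% of all genes, and lowered 0, against 6.08%. NSDHL, which removes a C4 carboxyl group, stood at 28.3, 27.7 and 27.5 CPM in siPRMT1 cells with R5020, against 17.5, 19.9 and 17.6 with ethanol. Its siCT libraries had 32.8, 28.2 and 28.4 CPM with R5020 and 23.5, 18.6 and 27.9 with ethanol. The R5020 libraries were above the ethanol libraries with either siRNA. NSDHL rose 1.52-fold in siPRMT1 cells (log2 0.60 ± 0.15 SE, adjusted p = 0.0152) and was not called in siCT cells (log2 0.36 ± 0.15 SE, adjusted p = 0.158) except without the pair (log2 0.42, adjusted p = 0.0289). The siPRMT1 call was lost without siPRMT1 ethanol replicate 1 or 3 or siPRMT1 R5020 replicate 1 (adjusted p 0.0563 to 0.0736), and with library totals alone (adjusted p = 0.183).

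CYP51A1, the lanosterol demethylase, was counted at only 17 to 57 reads per library. It had 1.13, 0.984 and 0.914 CPM in siPRMT1 cells with R5020 and 0.464, 0.479 and 0.653 with ethanol. In siCT cells it had 1.45, 1.54 and 1.78 CPM with R5020 and 1.5, 1.12 and 1.37 with ethanol. All siPRMT1 ethanol libraries were below all others, and siPRMT1 R5020 libraries lay below those of siCT R5020. R5020 raised it 1.89-fold in siPRMT1 cells (log2 0.92 ± 0.24 SE, adjusted p = 0.0192), and siPRMT1 lowered it 2.49-fold in ethanol (log2 -1.31 ± 0.24 SE, adjusted p = 0.00169) and 1.58-fold in R5020 (log2 -0.66 ± 0.22 SE, adjusted p = 0.0445). The comparisons of R5020 in siPRMT1 cells and of siPRMT1 in ethanol share the siPRMT1 ethanol libraries with opposite sign, here and for every gene. The ethanol call held without each library in turn. The R5020 effect was not called without siPRMT1 ethanol replicate 1 or 2 or siPRMT1 R5020 replicate 1 (adjusted p 0.086 to 0.0913), the same effect was lost with library totals alone or no filter, and the siPRMT1 effect in R5020 was lost without 9 of the 12 libraries, namely all but those of siCT in ethanol (adjusted p 0.0542 to 0.146). An antisense gene, 2 overlapping genes on the same strand and 3 pseudogenes are annotated for CYP51A1, and whether reads were lost to them was not tested.

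LSS, the cyclase that forms lanosterol, stood at 28.5, 24.5 and 27.8 CPM with siPRMT1 and 59.7, 40.5 and 37.5 with siCT in R5020. Ethanol levels were 22.9, 24.7 and 21.6 CPM with siPRMT1 and 47.4, 33.3 and 55.1 with siCT. No siPRMT1 library reached the lowest siCT library. LSS fell 1.96-fold in ethanol (log2 -0.97 ± 0.20 SE, adjusted p = 0.00395), a call kept without each library in turn, and 1.70-fold in R5020 (log2 -0.77 ± 0.20 SE, adjusted p = 0.016), a call lost without siCT R5020 replicate 1 or siPRMT1 R5020 replicate 2 (adjusted p 0.0675 to 0.0731, log2 -0.89 to -0.53). R5020 effects on LSS were log2 0.22 ± 0.20 in siPRMT1 cells and 0.02 ± 0.20 in siCT cells, neither called.

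SC5D, the lathosterol desaturase, stood highest in the siPRMT1 ethanol group. It stood at 233, 261 and 242 CPM with siPRMT1 and 176, 94.5 and 104 with siCT in R5020. In ethanol it stood at 391, 363 and 394 CPM with siPRMT1 and 123, 193 and 359.7 with siCT. The siPRMT1 groups lay above the siCT groups under both treatments, with siCT ethanol replicate 3 just below the siPRMT1 range. SC5D rose 1.97-fold with siPRMT1 in R5020 (log2 0.97 ± 0.32 SE, adjusted p = 0.042), a call lost without siCT R5020 replicate 2 or 3 or any siPRMT1 library (adjusted p 0.0589 to 0.138, log2 0.81 to 1.31). In ethanol it was not called (log2 0.77 ± 0.32 SE, adjusted p = 0.0847), and without the pair it was (log2 1.29, adjusted p = 8.63e-05). R5020 left all 3 siPRMT1 libraries of SC5D below the ethanol libraries, with log2 -0.64 ± 0.32 in siPRMT1 cells and -0.85 ± 0.32 in siCT cells, not called with all libraries. Both were called lower without the pair (adjusted p = 0.00323 and 0.0123).

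DHCR7, the last reductase of one route to cholesterol, was not called with all 12 libraries. It had 302, 283 and 305 CPM in siPRMT1 cells with R5020 and 162, 166 and 164 with ethanol, and 509, 324 and 306 in siCT cells with R5020 and 246, 171 and 427 with ethanol. R5020 gave log2 0.85 ± 0.28 SE, adjusted p = 0.0601 in siPRMT1 cells and log2 0.43 ± 0.28 SE, adjusted p = 0.39 in siCT cells. Without the pair DHCR7 rose in both (log2 0.85 and 0.59, adjusted p = 8.78e-05 and 0.00724). With siPRMT1 in ethanol all DHCR7 libraries lay below those of siCT (log2 -0.78 ± 0.28 SE, adjusted p = 0.0506). Without the pair it was called lower there (log2 -0.33, adjusted p = 0.0408) and was not called with siPRMT1 in R5020 (log2 -0.07, adjusted p = 0.643). FDFT1, squalene synthase, stood at 267, 250.7 and 260.3 CPM in siPRMT1 cells with R5020 and 201, 202 and 197 with ethanol. In siCT cells it stood at 220.5, 273 and 272 CPM with R5020 and 215, 189.7 and 166 with ethanol. Its R5020 libraries lay above its ethanol libraries with either siRNA, the pair included, and the log2 change was 0.38 ± 0.15 in siPRMT1 cells and 0.42 ± 0.15 in siCT cells, neither called. SQLE, squalene epoxidase, had log2 0.48 ± 0.26 with R5020 in siPRMT1 cells and 0.43 ± 0.26 in siCT cells, neither called. Without the pair FDFT1 and SQLE rose with R5020 with either siRNA (adjusted p 0.000247 to 0.00319).

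The siPRMT1 effect on SQLE turned its sign with the pair. SQLE stood at 178, 183 and 176 CPM with siPRMT1 and 235, 153 and 158 with siCT in R5020, and at 129.7, 126 and 129 with siPRMT1 and 94.9, 106 and 205 with siCT in ethanol. The highest library of each siCT group was the one of the pair. With all libraries the siPRMT1 change was log2 -0.07 ± 0.26 and not called, and without the pair SQLE rose by 0.36 ± 0.08 (adjusted p = 0.00312). MSMO1, a C4 methyl oxidase, and EBP, a sterol isomerase, likewise had siPRMT1 values in ethanol of log2 0.18 ± 0.29 and 0.05 ± 0.29 that were not called, and both rose without the pair (log2 0.66, adjusted p = 0.00182 for MSMO1 and log2 0.51, adjusted p = 0.00606 for EBP). TM7SF2 and HSD17B7, a reductase pair of the same route, were not called in any comparison with or without the pair. TM7SF2 averaged 120.2 ± 4.66 CPM with siPRMT1 and 155 ± 65.0 with siCT in ethanol (SD, n = 3 each), and 2 pseudogenes are annotated for HSD17B7.

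**Figure D3:**
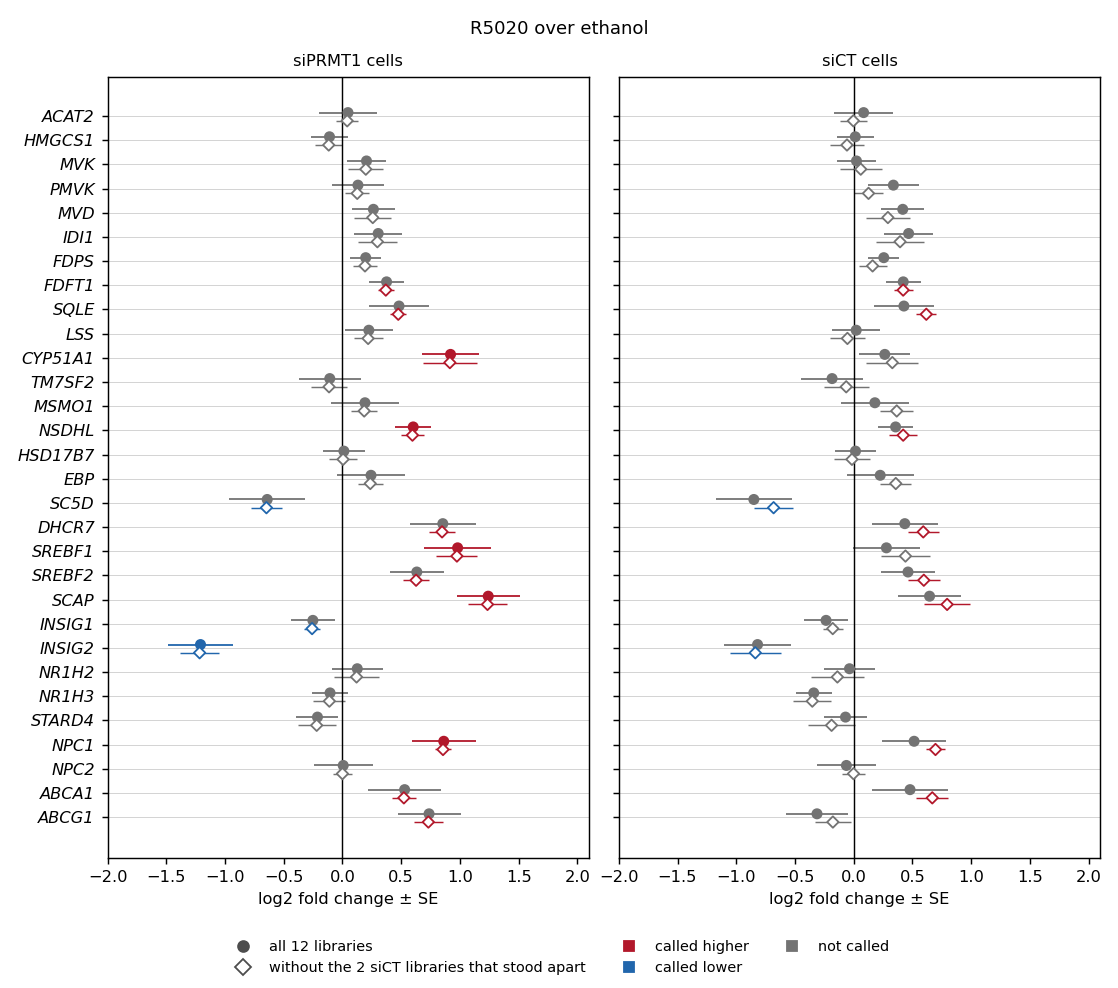
Log2 fold change of R5020 over ethanol with its SE for each cholesterol gene, in siPRMT1 cells (left) and siCT cells (right), with all 12 libraries (circles) and without siCT R5020 replicate 1 and siCT ethanol replicate 3 (diamonds). With all libraries 5 genes were called higher and 1 lower in siPRMT1 cells and 0 in siCT cells, and without the pair 8 and 2 were called in siCT cells.

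Lysosomal exit and export genes differed in how they moved. NPC1, the membrane transporter of lysosomal cholesterol, stood at 95.2, 95.7 and 98.1 CPM in siPRMT1 cells with R5020, against 53.0, 53.1 and 52.8 with ethanol. The siCT values were 125, 78.8 and 76.0 CPM with R5020 and 49.8, 45.3 and 101 with ethanol. Both siPRMT1 groups were tight and far apart, while siCT ethanol replicate 3 lay within the siCT R5020 range. R5020 raised NPC1 1.82-fold in siPRMT1 cells (log2 0.86 ± 0.27 SE, adjusted p = 0.0482). The call was lost without siCT R5020 replicate 2 or 3 or any siPRMT1 library (adjusted p 0.0511 to 0.133), though the log2 value stayed between 0.83 and 0.88. Without the pair the same change was log2 0.86 ± 0.07 SE (adjusted p = 1.8e-06). In siCT cells NPC1 was not called (log2 0.51 ± 0.27 SE, adjusted p = 0.268), and without the pair it rose (log2 0.70, adjusted p = 9.26e-05). NPC2, its soluble partner, was not called in any comparison, with R5020 changes of log2 0.01 ± 0.25 in siPRMT1 cells and -0.06 ± 0.25 in siCT cells. STARD4, a cytosolic sterol carrier, was not called either (-0.21 ± 0.18 and -0.07 ± 0.18).

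ABCA1, which exports cholesterol to lipid-poor apolipoprotein, had 19.3, 20.3 and 20.3 CPM with siPRMT1 and 13.2, 7.11 and 7.46 with siCT in R5020. In ethanol it had 13.6, 12.9 and 15.0 CPM with siPRMT1 and 4.14, 4.99 and 11.2 with siCT. Each siPRMT1 group lay above the siCT group of the same treatment. ABCA1 rose 2.09-fold with siPRMT1 in ethanol (log2 1.06 ± 0.32 SE, adjusted p = 0.0231) and 2.16-fold in R5020 (log2 1.11 ± 0.32 SE, adjusted p = 0.0215). The ethanol call was lost without siCT ethanol replicate 1 or 2 or siPRMT1 ethanol replicate 1 or 3 (adjusted p 0.0562 to 0.0855, log2 0.80 to 1.66), and the R5020 call without siCT R5020 replicate 2 or 3 or siPRMT1 R5020 replicate 2 or 3 (adjusted p 0.0594 to 0.0807). Without the pair the increases were larger, log2 1.61 ± 0.13 in ethanol and 1.47 ± 0.12 in R5020. R5020 gave ABCA1 log2 0.53 ± 0.31 SE in siPRMT1 cells, where its libraries did not overlap, and 0.48 ± 0.32 SE in siCT cells, neither called. Without the pair ABCA1 rose with R5020 in both (log2 0.52 and 0.67, adjusted p = 0.002 and 0.00432).

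ABCG1, which exports cholesterol to lipoprotein particles, went the other way in ethanol. It had 10.2, 9.11 and 9.20 CPM with siPRMT1 and 12.3, 7.80 and 7.84 with siCT in R5020, and 5.21, 5.38 and 6.50 with siPRMT1 and 9.84, 7.76 and 17.3 with siCT in ethanol. The siPRMT1 ethanol libraries were below every other library. ABCG1 fell 2.02-fold with siPRMT1 in ethanol (log2 -1.02 ± 0.27 SE, adjusted p = 0.0125), a call lost without siCT ethanol replicate 3 or siPRMT1 ethanol replicate 1 (adjusted p 0.0515 to 0.0533, log2 -1.24 to -0.57), and showed log2 0.03 ± 0.27 in R5020, not called. R5020 gave log2 0.74 ± 0.27 SE, adjusted p = 0.0884 in siPRMT1 cells and log2 -0.31 ± 0.27 SE, adjusted p = 0.539 in siCT cells, neither called, and without the pair ABCG1 rose in siPRMT1 cells (log2 0.73, adjusted p = 0.000936).

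**Figure D4:**
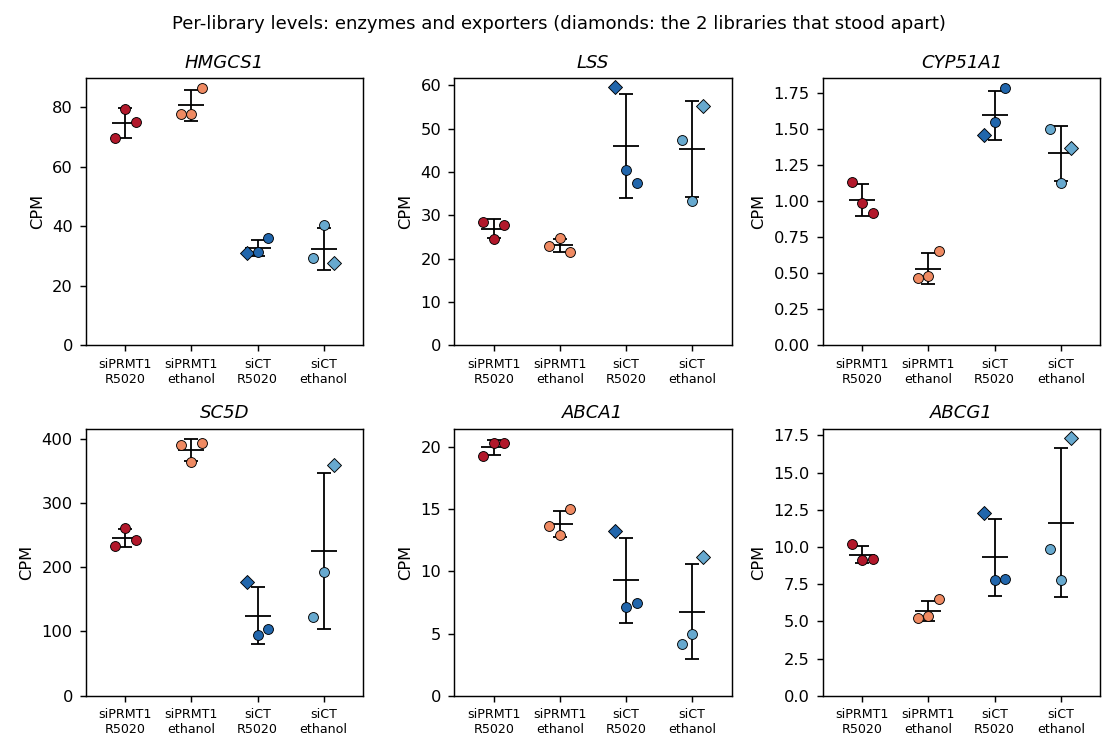
CPM of 6 genes in each library by group (points), with the mean and SD of 3 libraries (bars); diamonds are siCT R5020 replicate 1 and siCT ethanol replicate 3. HMGCS1 and ABCA1 are higher and LSS and CYP51A1 lower with siPRMT1 than with siCT under the same treatment, while ABCG1 is lower with siPRMT1 in ethanol and overlaps in R5020.

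Under both treatments the siPRMT1 calls had 5 genes in common, in the same direction, of 7 called in R5020 and of 10 called in ethanol. These were HMGCS1 and ABCA1, higher, and FDPS, LSS and CYP51A1, lower. The 2 comparisons contrast different libraries, but the spread of each gene was fitted over all 12 libraries, so their calls are not independent. Over all genes, 79.6% of those called in R5020 and 62.5% of those called in ethanol were shared in the same way. The ethanol calls of SCAP and SREBF1 were also lost with library totals alone, as was the R5020 call of MVD, and those of SCAP, SREBF1, FDPS and ABCA1 in a fit of the 2 ethanol groups. The R5020 call of CYP51A1 was lost by DESeq2, with library totals alone and with no filter. Without the pair 12 were shared, of 14 called in R5020 and 16 called in ethanol, against 78.4% and 68.5% over all genes.

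**Figure D5:**
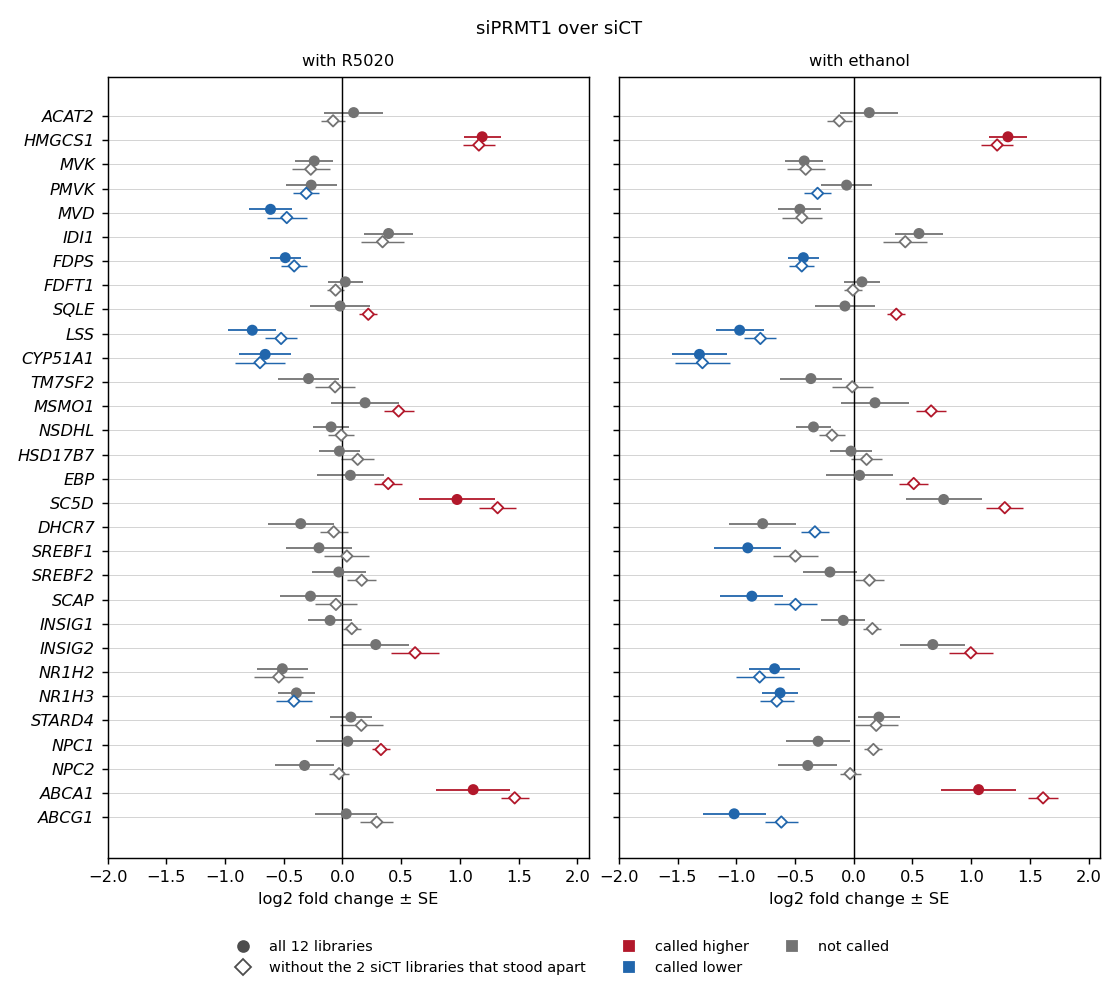
Log2 fold change of siPRMT1 over siCT with its SE for each cholesterol gene, with R5020 (left) and with ethanol (right), with all 12 libraries (circles) and without the pair that stood apart (diamonds). HMGCS1 and ABCA1 were called higher and FDPS, LSS and CYP51A1 lower under both treatments with all libraries.

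Whether PRMT1 depletion altered the R5020 response was tested by the interaction (the log2 change in siPRMT1 cells less the one in siCT cells). With edgeR 0 of 30 genes were called (0.079% of all genes were, and 0.779% without the pair), 1 had an unadjusted p under 0.05, and DESeq2 and limma with quality weights each called 0. That 1 gene was ABCG1, at 1.05 ± 0.38 (log2 ± SE, adjusted p = 0.84), and without the pair it was 0.91 ± 0.20 (adjusted p = 0.0663). The other values ran from -0.39 for INSIG2 to 0.70 for SREBF1, with 0.60 ± 0.37 for SCAP, 0.66 ± 0.33 for CYP51A1 and 0.42 ± 0.40 for DHCR7. With SEs of 0.19 to 0.45 these do not show that the responses were equal.

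Other genes that handle sterols were taken from lists chosen with earlier results of these data known. Of 21 tested genes of sterol storage, transport and oxidation, R5020 raised 3 and lowered 2 in siPRMT1 cells (23.8% called, against 15.4% of all genes), and raised 4 and lowered 2 in siCT cells (28.6%, against 13%). CYP27A1, which oxidizes the cholesterol side chain, rose 7.15-fold in siPRMT1 cells (adjusted p = 7.47e-06) and 6.42-fold in siCT cells (adjusted p = 7.07e-06). LRP8, a receptor of the lipoprotein receptor family, rose 4.77-fold in siPRMT1 cells and 3.47-fold in siCT cells. GRAMD1C, a sterol transfer protein, fell 3.64-fold in siPRMT1 cells and 3.09-fold in siCT cells. MYLIP, a ubiquitin ligase that removes lipoprotein receptors, fell 1.71-fold in siPRMT1 cells and 1.62-fold in siCT cells. VLDLR, another receptor of that family, rose 2.90-fold in siPRMT1 cells and 1.67-fold in siCT cells, where its libraries overlapped. With siPRMT1 the list gave 3 higher and 9 lower in ethanol (57.1% called, against 32.8% of all genes) and 2 higher and 6 lower in R5020 (38.1%, against 25.7%). GRAMD1B, a sterol transfer protein, rose 2.65-fold in ethanol and 3.81-fold in R5020. HSD3B7, of bile acid synthesis, and LRP1, an endocytic receptor, fell under both treatments. CYP27A1 fell 2.48-fold in ethanol and 2.22-fold in R5020. LRP8 fell 2.59-fold in ethanol. In R5020 it stood at 10.4, 11.7 and 11.3 CPM with siPRMT1 and 27.5, 19.3 and 16.4 with siCT. Of 15 tested genes of SREBP processing 1 rose with R5020 in siPRMT1 cells (6.67%, against 9.3% of all genes). This was ERLIN1 (log2 1.00, adjusted p = 0.0159), which encodes an endoplasmic reticulum protein that restrains SREBP activation. ERLIN1 had log2 0.64 ± 0.25 in siCT cells, not called. ERLIN1 fell with siPRMT1 in ethanol (log2 -1.10, adjusted p = 0.00652), and PAQR3, a Golgi anchor of SCAP, rose (log2 0.67, adjusted p = 0.00834). The 15 isoprenoid branch genes had a median log2 change with R5020 of -0.00842 in siPRMT1 cells and -0.174 in siCT cells, against -0.00361 and -0.0432 for all genes. With siPRMT1 in ethanol 3 of them rose and 4 fell (46.7%, against 32.8% of all genes), among them PDSS2, of coenzyme Q synthesis, at log2 0.89, adjusted p = 0.00386.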

How the data were processed

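Gene expression was measured by RNA-seq in 12 libraries. For each library the authors deposited raw read counts per gene symbol. The submitters' processing notes name the build hg19 and the tools DESeq2, HTSeq 0.9.1 and Bowtie2 2.3.2.2. The sources used here give neither the strand setting nor the annotation. Reads shared with an overlapping gene or pseudogene could be lost or split.

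Counts were tested here with edgeR 4.0.16 in R 4.3.3 (filterByExpr, TMM, 1 mean per group over all 12 libraries, quasi-likelihood test, Benjamini-Hochberg over 17727 genes). Levels are CPM, errors are SD or the SE of log2 values. The procedure was tested on simulated data in which each gene had the same spread in all groups. That simulation does not cover the unequal spread of the groups here. Alternatives were DESeq2 1.42.0, limma 3.58.1 voom with quality weights, library totals alone, no filter, fits of 2 groups, a replicate block, fits lacking the pair with high mitochondrial shares, and fits lacking each library in turn. The authors' table of comparisons was not used here. The members, lists and tests were chosen with earlier results of these data known. All members are named, and from other lists, markers apart, only genes among the 4 called with the smallest adjusted p in a comparison. Titles call the ethanol groups T0, and their treatment label gives 6 h of ethanol.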

Additional observations from a re-analysis of the deposited data

How the results depend on the processing

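The count of cholesterol genes called with R5020 in siPRMT1 cells (5 higher, 1 lower) became 11 and 3 without the pair that stood apart, 16 and 4 by limma with quality weights and 17 and 4 in a fit of those 2 groups alone, with 2 lower by library totals alone. In siCT cells (0 higher, 0 lower) it became 8 and 2 without the pair, 3 and 2 by limma, 1 and 2 with no filter, 1 and 1 by DESeq2, and 2 lower by library totals. With siPRMT1 in ethanol (2 higher, 8 lower) higher calls became 7 without the pair, 6 by limma and 5 with no filter, while both directions moved with library totals (4 and 3) and in the fit of 2 groups (1 higher, 3 lower). With siPRMT1 in R5020 (3 higher, 4 lower) they became 8 higher without the pair, 8 and 8 by limma, 1 lower by library totals and 2 lower with no filter. The share of all genes called moved as well. For R5020 in siPRMT1 cells it was 15.4% with all libraries, 29.1% without the pair, 46.1% by limma, 46.6% in the fit of 2 groups and 11.6% by library totals. In siCT cells these were, in the same order of settings, 13%, 19.9%, 11.6%, 5.29% and 8.9%, with 15.8% by DESeq2 and 7.99% with no filter. With siPRMT1 in ethanol they were 32.8%, 44.5%, 30.7%, 19.5% and 17%, with 19.7% with no filter, and in R5020 25.7%, 38.9%, 55.7%, 35.2% and 13.7%, with 15.8% with no filter. The other settings stayed within 1.5 times, and the interaction gave 0 under each. Leaving out each library in turn gave 1 to 8 higher and 0 to 2 lower with R5020 in siPRMT1 cells, 0 to 9 and 0 to 2 in siCT cells, 1 to 5 and 3 to 13 with siPRMT1 in ethanol, and 1 to 4 and 0 to 6 with siPRMT1 in R5020. Over these fits the share of all genes called ran, in the same order, from 10.1% to 21.1%, 8.57% to 16.8%, 19.3% to 43.4% and 12.9% to 37.5%. The siPRMT1 value of SQLE turned to log2 0.36 in ethanol and 0.22 in R5020 without the pair, and 80 other changes of sign were of values called in neither setting. The cause of these changes was not tested.

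Deviations from the group mean of libraries with the same replicate number had r from -0.772 to 0.411 over 18 pairs, with 4 over 0.1. The lowest values, -0.772 and -0.587, were between siCT groups, for the 2 numbers that the pair that stood apart bears. These values therefore cannot decide whether the numbers pair the libraries. With the replicate number as a block 4 genes were called higher and 1 lower with R5020 in siPRMT1 cells (8.05% and 4.8% of all genes). In siCT cells the block fit called 0 (10.7% of all genes). With siPRMT1 it called 2 higher and 8 lower in ethanol (11.8% and 16.1%), and 2 and 3 in R5020 (9.62% and 12.1%). NPC1 lost its R5020 call, and CYP51A1 and SC5D their siPRMT1 calls in R5020. Low counts limit CYP51A1 most, and 3 libraries a group limit all results.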

Other observations

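Fatty acid genes driven by SREBPs were compared in the same fit. Of 11 tested, R5020 raised 2 and lowered 1 in siPRMT1 cells and raised 2 and lowered 1 in siCT cells (27.3% called in each, against 15.4% of all genes in siPRMT1 cells and 13% in siCT cells). FASN, fatty acid synthase, averaged 292 ± 14.4 CPM in siPRMT1 cells with R5020 and 181 ± 8.98 with ethanol, and 475 ± 80.4 in siCT cells with R5020 and 233 ± 50.6 with ethanol (SD, n = 3 each). It rose 1.61-fold in siPRMT1 cells (log2 0.68, adjusted p = 0.023 by edgeR) and 2.04-fold in siCT cells (log2 1.03, adjusted p = 0.00199). GPAM, an acyltransferase of glycerolipid synthesis, fell 1.51-fold in siPRMT1 cells and 1.93-fold in siCT cells. SCD, a desaturase, rose in siCT cells (log2 1.11, adjusted p = 0.0114) and was not called in siPRMT1 cells (log2 0.67, adjusted p = 0.111). PNPLA3, a lipase, rose in siPRMT1 cells (log2 0.85, adjusted p = 0.0443) and was not called in siCT cells (log2 0.76, adjusted p = 0.0763). With siPRMT1 ACLY, which makes cytosolic acetyl-CoA, fell 1.91-fold in ethanol and 1.96-fold in R5020, FADS1, a desaturase, fell 2.06-fold and 1.91-fold, and LPIN1, a phosphatidate phosphatase, rose 1.36-fold and 1.63-fold.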
